A study of Mus musculus with 9 samples.

Results

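The genes described here are 41 members of the BMP and TGF-beta signalling system, out of 56980 genes in the table. They were picked by symbol, from a list chosen with earlier results of these data known. The list held 11 BMP-class ligands, 5 TGF-beta and activin ligands, 10 receptors, 4 secreted antagonists, 8 SMADs and 3 target genes. Every symbol was found. RNA sequencing measured them in 4 young mice (3 months old) and 5 aged mice (20 months old), all wild type C57BL/6, with no treatment other than ageing. The labels call the tissue bone marrow, while the extraction text names trabecular bone that was homogenized whole, so bone and marrow cells could both contribute. The libraries are called young 1 to 4 and aged 1 to 5, each labelled a biological replicate.

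Ligands of this family are secreted dimers that bring type I and type II serine/threonine kinase receptors together. The type I receptor then phosphorylates a receptor SMAD (SMAD1, SMAD5 and SMAD9 for BMPs, SMAD2 and SMAD3 for TGF-beta and activins), which enters the nucleus with SMAD4. In bone, BMPs are known for inducing osteoblast differentiation, and TGF-beta, stored in a latent form in the matrix, is known for coupling resorption to formation.

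Library totals were 19804883 to 23548594 estimated counts. Young 4, aged 3 and aged 4 stood apart: they held 5.76% to 6.70% of counts in genes of ribosomal proteins, where the remaining 6 held 2.97% to 3.21%, and their TMM scaling factors were 0.70 to 0.86 against 1.09 to 1.17. Transcripts tied to sex also went against the labels. All mice are stated to be female, but Xist had 1 to 9 counts in young 1 to 4 and aged 5 and 7909 to 21724 in aged 1 to 4, while the Y-linked Ddx3y and Eif2s3y had 888 to 1912 counts in the first 5 libraries and 0 in aged 1 to 4. Age and this difference cannot be told apart in the full comparison, so the value of young 1 to 3 against aged 5, which share both the Y-linked transcripts and the low ribosomal share, is given for each role and for the members described by library. It rests on 1 aged library and has no test. Marker genes of osteoblasts and osteocytes were all detected (12 of 12), as were those of neutrophils (10 of 10), of erythroid cells (9 of 9) and of macrophages and monocytes (11 of 11). Summed osteoblast markers were at 2357 to 6144 CPM (counts scaled to a common library size with TMM factors) in the young libraries and 359 to 2528 in the aged.

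The sequences just upstream of 4 genes are shown because these were the tested members with the smallest p-values between young and aged libraries. Each is the RefSeq promoter window of GRCm38.p6, 5′ to 3′ on the strand of the gene, ending before the first annotated exon base. Capitals mark matches to CAGAC (or its complement GTCTG) and to GGCGCC, short motifs known from DNA bound by SMAD proteins. The windows are Bmp5 at chr9:75775115-75775363 (plus strand), Smad1 at chr8:79399519-79399678 (minus strand), Bmpr1a at chr14:34502688-34502796 (minus strand) and Inhbb at chr1:119422249-119422498 (minus strand).
Bmp5: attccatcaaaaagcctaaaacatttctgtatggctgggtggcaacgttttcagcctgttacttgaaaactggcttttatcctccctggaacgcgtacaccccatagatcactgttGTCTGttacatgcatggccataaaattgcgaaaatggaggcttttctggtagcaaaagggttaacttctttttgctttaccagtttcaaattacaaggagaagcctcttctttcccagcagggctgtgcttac
Smad1: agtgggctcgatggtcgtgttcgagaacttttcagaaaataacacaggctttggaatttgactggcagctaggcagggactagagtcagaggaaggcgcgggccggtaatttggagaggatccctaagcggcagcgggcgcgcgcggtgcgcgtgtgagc
Bmpr1a: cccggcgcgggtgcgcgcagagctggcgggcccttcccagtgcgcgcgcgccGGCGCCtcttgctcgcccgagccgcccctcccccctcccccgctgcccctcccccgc
Inhbb: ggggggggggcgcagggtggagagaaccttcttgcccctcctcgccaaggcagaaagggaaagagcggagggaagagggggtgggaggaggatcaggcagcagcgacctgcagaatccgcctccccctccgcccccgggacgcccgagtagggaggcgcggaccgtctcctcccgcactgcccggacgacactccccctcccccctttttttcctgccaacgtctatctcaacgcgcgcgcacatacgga

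The windows differed in length and base content, with G and C making up 43.0% of Bmp5, 58.1% of Smad1, 84.4% of Bmpr1a and 68.0% of Inhbb. Bmp5 held 1 CAGAC match on the opposite strand, Bmpr1a held 1 GGCGCC, and the letters of neither motif were in the windows of Smad1 and Inhbb. In the promoter table, 27 of the 41 members were found, with 32 windows of 250 bases. On either strand, and whether or not matches overlapped, CAGAC was in 14 of these 32 windows and in 42.2% of all 32851, and GGCGCC was in 8 of 32 and in 9.59% of all. The median GC content was 66.6% in the members' windows and 52.4% in all, and the GGCGCC share was not compared at matched GC content. A match is a description of these letters and not a binding site.

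Levels were compared between genes on the deposited TPM scale, which accounts for gene length. Tgfb1, the TGF-beta isoform of blood and immune cells, was highest, at a mean of 107 TPM over the 9 libraries, with 46.7 to 194.9 between libraries. The Id genes, inhibitors of helix-loop-helix transcription factors that BMP signalling is known to induce, came next at 61.3 (Id2), 28.5 (Id1) and 25.5 TPM (Id3). Among the receptors Acvrl1, the type I receptor ALK1, was at 18.5 TPM, Tgfbr2 at 15.9 and Tgfbr1 at 13.3. The highest SMADs were Smad2 at 16.8 TPM and the shared partner Smad4 at 14.9, and the antagonists Grem1 and Fst were at 3.65 and 3.45 TPM.

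BMP ligand transcripts were scarcer. Bmp1 led them at 8.17 TPM, although its product is a procollagen C-proteinase and not a signalling ligand. Bmp6 was at 4.55 and Bmp4 at 3.80 TPM, and 7 others (Gdf11, Bmp5, Bmp3, Bmp2, Gdf10, Bmp8a and Bmp7) lay between 0.323 and 1.53. The lowest members were Smad9 at 0.176 TPM, the type I BMP receptor Bmpr1b at 0.122 and Gdf5, a ligand of joint development, at 0.0311, and the low-count filter of edgeR left out Gdf5 (0 to 6.47 counts per library) and Bmpr1b (3 to 33 counts). In 3 of 36 members with enough counts to compare, TPM per count in 1 library differed by more than 2-fold from that gene's other libraries, against 5.24% of 14834 genes. Bmp4 in aged 2 had 3.77 times the TPM per count (10.6 TPM, with 0.59 to 5.61 elsewhere) and Tgfb2 in aged 3 had 8.89 times (3.62 TPM, with 0.65 to 1.89 elsewhere), so age comparisons below use counts.

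**Figure D1:**
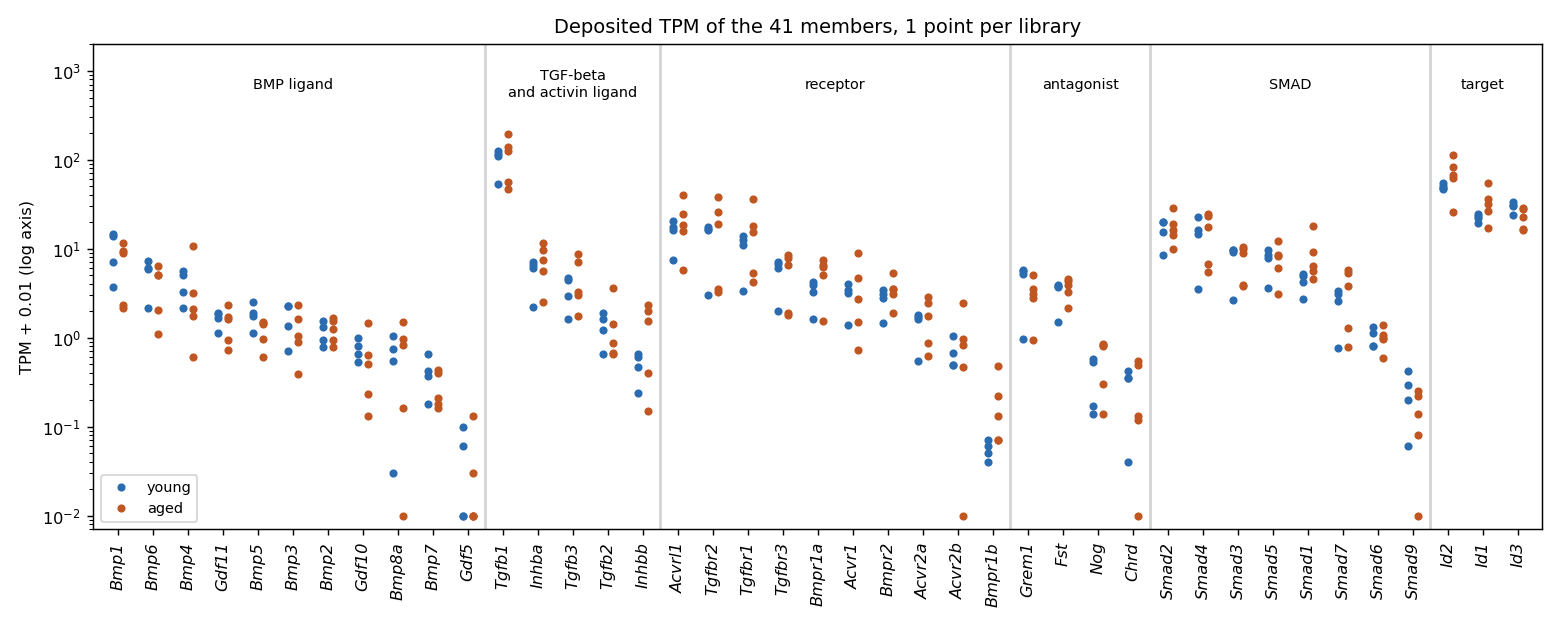
Deposited TPM of the 41 members on a log axis (TPM + 0.01), grouped by role, 1 point per library with young in blue and aged in orange. Tgfb1 at a mean of 107 TPM and Id2 at 61.3 TPM top the plot, and Gdf5 at 0.0311 TPM is lowest.

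No member passed the test between aged and young mice. Of 39 tested, 0 had an adjusted p under 0.05 in edgeR's quasi-likelihood test, where 0% of all 16576 tested genes did; the smallest among members was 0.356, for Bmp5. DESeq2 called 0 of the 40 members it gave an adjusted p, where 1.73% of all genes were called, limma-voom called 0 members, and 0 of 41 had an adjusted p under 0.05 in the authors' deposited table, whose smallest was 0.0801. At an unadjusted p under 0.05 there were 3 of 39 (Bmp5 lower, Smad1 and Bmpr1a higher), or 7.69%, against 8.79% of all genes, so this share was near the background. With a term for the 3 libraries that stood apart, 0 members were called against 1.92% of all genes (0.615% higher, 1.31% lower), and 8 of 39 (5 higher, 3 lower; 20.5%) had an unadjusted p under 0.05 against 18.8%. Exact permutation gave an unadjusted p under 0.05 for 4 of 39 (Bmp5, Tgfb2, Bmpr1a and Bmpr2; 10.3%), against 9.03% of all genes. In the 6 libraries alone 0 members were called, where 0.012% of all genes were. The median log2 fold change of the 39 was 0.03, that of all tested genes 0.03, and 18 of 39 (46.2%) were below 0 against 46.5%. Below 0 were also 19 of 39 with the set term (48.9% of all genes), 19 of 39 in the 3 libraries that stood apart (51%) and 23 of 39 in young 1 to 3 against aged 5 (50.4%). In bulk tissue, fewer cells of a type and less RNA per cell cannot be told apart for any of these values.

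Calls with the library set term depended on single libraries. Without aged 3, Bmp5 (log2 fold change −0.68, edgeR adjusted p = 0.0367), Inhbb (1.30, 0.0300), Bmpr1a (0.79, 0.0179) and Id2 (0.41, 0.0275) were called, in a fit that called 9.91% of all genes. Without aged 5, Smad1 was called (1.06, 0.0199) in a fit that called 4.36% of all genes. Leaving out each of the other 7 libraries gave 0 called members. Between the library sets, the age effect itself was not called different for any of 39 members (edgeR interaction, 0.0121% of all genes called), and Tgfb1 and Inhbb had the only unadjusted p-values under 0.05 (0.0123 and 0.0174, both adjusted to 0.925), a share of 5.13% against 5.21% of all genes.

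**Figure D2:**
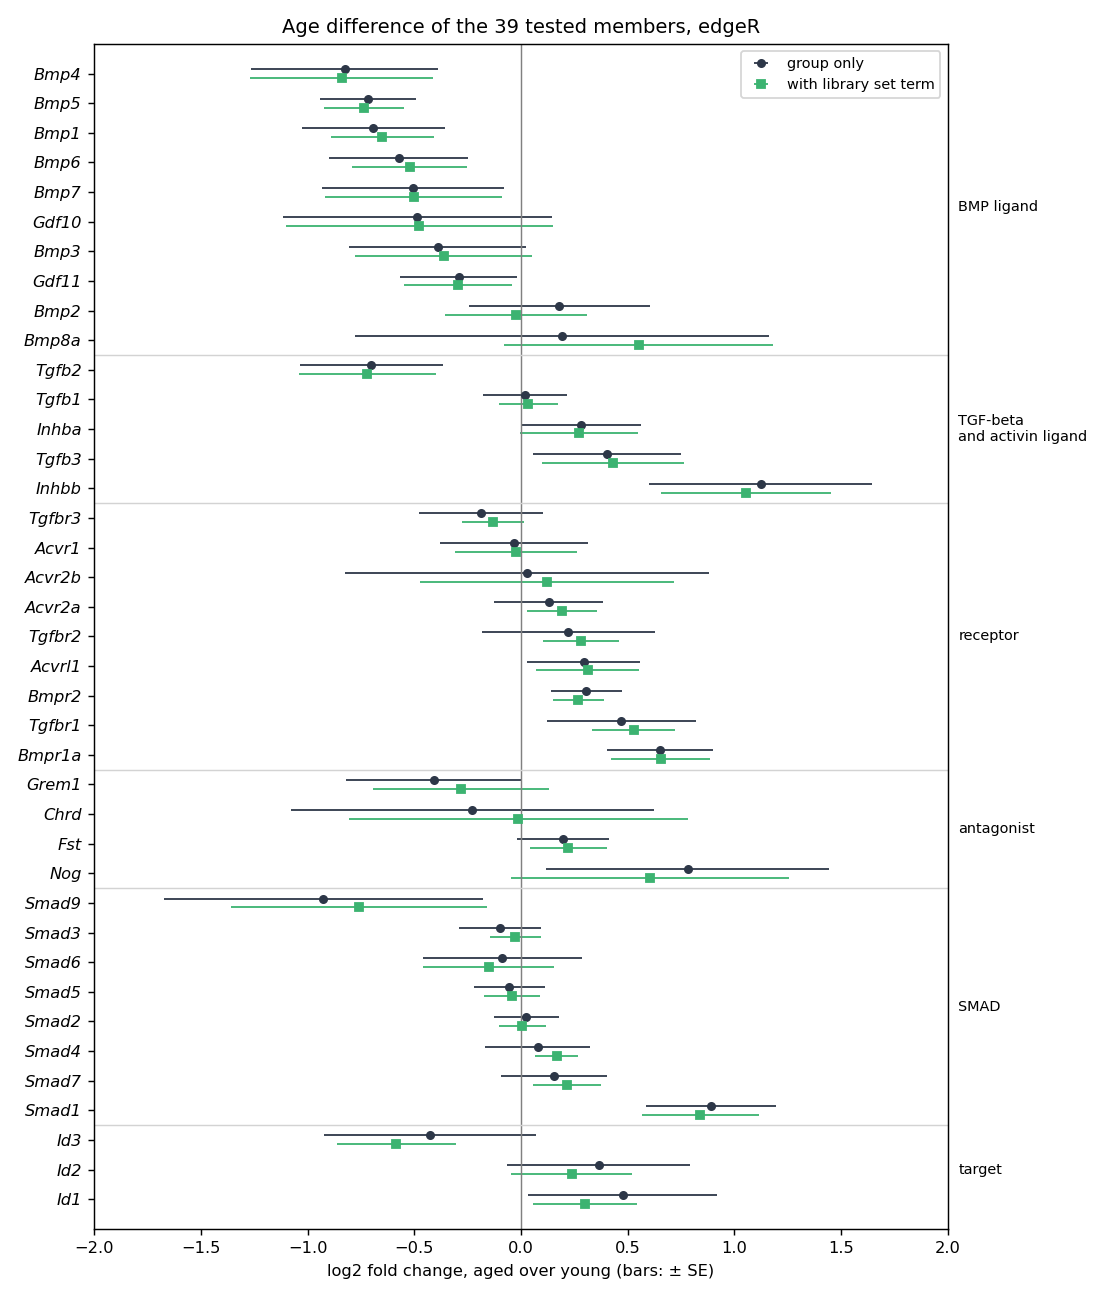
Log2 fold change of the 39 tested members, aged over young, from the fit with group only (dark circles) and the fit with the library set term (green squares), with bars of 1 SE, ordered by role. BMP ligands, with Bmp1 counted among them, lie mostly left of 0 (median −0.50) and receptors mostly right of it (median 0.22). In either fit, 0 members passed the adjusted threshold.

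Among the BMP ligands, 8 of 10 tested had a log2 fold change below 0, with a median of −0.50 where all genes had 0.03. Bmp1, whose product is not a signalling ligand, is counted among the 10, at −0.69. The median was −0.49 with the set term, −0.39 in the 6 libraries alone, −0.81 in the 3 that stood apart and −0.32 in young 1 to 3 against aged 5. The exceptions in the full comparison were Bmp2, an osteoinductive BMP, at 0.18, and Bmp8a at 0.19. Other scaling factors in edgeR left 8 of 10 below 0 (medians −0.49 to −0.45), and in limma-voom 10 of 10 were (median −0.65). In young 1 to 3 against aged 5, Bmp2 was at −0.50 and Bmp8a at 0.97.

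Bmp5, a ligand of the group that also holds BMP6 and BMP7, was at 7.26, 5.72, 5.92 and 8.22 CPM in young 1 to 4 and at 3.58, 4.36, 3.74, 4.67 and 4.26 CPM in aged 1 to 5. In CPM, every aged library lay below every young one, which 2.76% of all tested genes also showed and no other member did. On the TPM scale Bmp5 overlapped between groups, with young 4 (1.13) below aged 1 (1.5), aged 2 (1.41) and aged 5 (1.45). The mean TPM of Bmp5 was still lower in aged (1.18) than in young (1.81). Its mean was 6.78 ± 1.18 CPM in young (SD, n = 4) and 4.12 ± 0.45 in aged (SD, n = 5), a log2 fold change of −0.72 (SE 0.22; edgeR adjusted p = 0.356). With the set term the log2 fold change was −0.73 (edgeR adjusted p = 0.0744). Its exact two-sided permutation p was 0.00794, the smallest that 4 against 5 libraries allow, and no gene's permutation p passed adjustment over all genes (smallest 0.427). The value was −0.57 in young 1 to 3 against aged 5, −0.62 in the 6 libraries and −0.96 in the 3. Over the tested alternatives its adjusted p was 0.0744 to 0.830. Here and below, such ranges do not cover the fits with the set term and 1 library left out. Without aged 3, that fit gave Bmp5 an edgeR adjusted p of 0.0367. Its promoter window holds the CAGAC match and has the lowest GC content of the 4 shown.

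Bmp4, a BMP with known roles in osteogenic and hematopoietic development, was at 4.03, 5.77, 5.67 and 6.52 CPM in young 1 to 4 and at 1.55, 3.51, 5.09, 1.14 and 4.18 CPM in aged 1 to 5. Aged 4 and aged 1 were lowest, and aged 3 and aged 5 lay within the young range. The log2 fold change was −0.83 (SE 0.44; edgeR adjusted p = 0.693), and −0.30 in young 1 to 3 against aged 5. Bmp1, the procollagen proteinase, was at 43.7, 46.9, 23.9 and 29.3 CPM in young 1 to 4 and at 19.7, 31.1, 15.3, 12.3 and 32.7 CPM in aged 1 to 5. Young 1 and young 2 were highest, and aged 2 and aged 5 lay above young 3 and young 4. Its log2 fold change was −0.69 (SE 0.33; edgeR adjusted p = 0.628), and −0.22 in young 1 to 3 against aged 5.

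The remaining BMP ligands all overlapped between groups. Bmp6, which hepatic endothelium is known to make as a signal of iron status, had a log2 fold change of −0.57 (14.7 to 19.9 CPM in young, 4.99 to 18.5 in aged). Bmp7 was at −0.51, Gdf10 (BMP3B) at −0.49, Bmp3, a BMP known to oppose osteogenic BMPs, at −0.39, and Gdf11, a ligand of activin type II receptors, at −0.29. Their edgeR adjusted p-values were 0.740 to 1.00. In young 1 to 3 against aged 5, Bmp6, Bmp7, Gdf10 and Gdf11 were at −0.40, −0.35, −0.38 and −0.21, and Bmp3 at 0.15. Reads of Bmp6 may be shared with Txndc5, whose exons overlap it on the opposite strand and which had 1526 to 9138 counts, since the strand setting of the counting is not given in the sources used here.

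Levels of 6 of these ligands followed the same libraries. In CPM of Bmp3, Bmp4, Bmp6, Bmp7, Gdf10 and Gdf11, aged 1 and aged 4 were the 2 lowest of the 9 libraries. This order was found in 5.06% of all tested genes and in 0 other tested members, and was chosen for description after its values were seen. On the TPM scale aged 4 was lowest in all 6, but aged 1 was not always next. Young 4 was below aged 1 in Bmp3 (0.70 and 0.88) and level with it in Bmp7 (0.17). In Bmp6 and Gdf11, young 4 (2.17 and 1.13 TPM) and aged 3 (2.04 and 0.93) were below aged 1 (5.02 and 1.71). The summed osteoblast and osteocyte markers were also lowest in aged 4 (359 CPM) and aged 1 (675 CPM), with 1589 to 6144 in the other 7 libraries, and 12 of 12 markers had a log2 fold change below 0 (median −0.75). Erythroid markers had the same 2 lowest libraries, summing to 1100 CPM in aged 1, 1350 in aged 4 and 2715 to 7748 in the other 7, and 9 of 9 were below 0 (median −1.29). No marker of either list was at 0 in all libraries. The part of these marker levels in the ligand values was not tested.

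**Figure D3:**
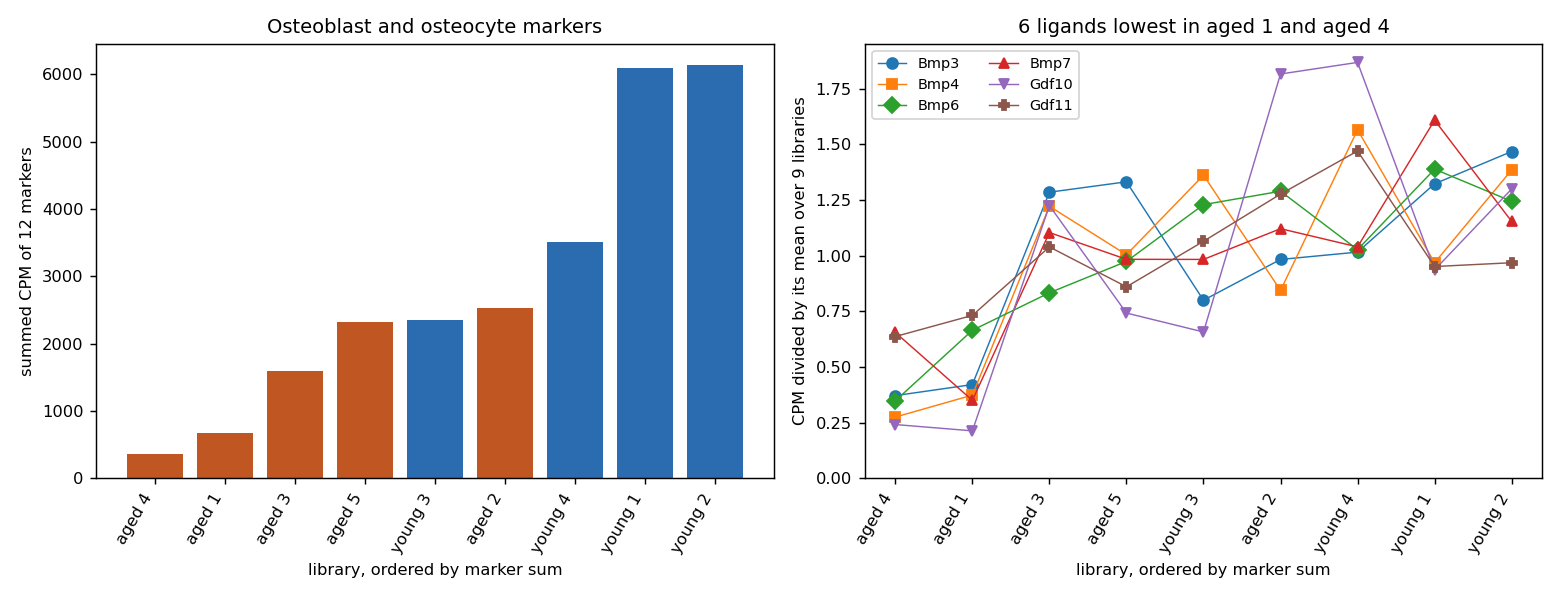
Left, the summed CPM of 12 osteoblast and osteocyte markers by library (young blue, aged orange), ordered by that sum. Right, the CPM of 6 BMP ligands in the same library order, each divided by its mean over the 9 libraries; aged 4 and aged 1, at the left with sums of 359 and 675 CPM, hold the lowest values of all 6.

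TGF-beta and activin ligands did not share a direction: 4 of 5 were above 0 (median 0.28; 3 of 5 in limma-voom), and Tgfb2 was below. The median was 0.27 with the set term, 0.25 in the 6 libraries and 0.20 in young 1 to 3 against aged 5, and it turned to −0.26 in the 3 libraries that stood apart, where 3 of 5 were below 0. Tgfb2, a TGF-beta isoform of mesenchymal tissues, was at 6.50, 6.13, 4.95 and 6.38 CPM in young 1 to 4 and at 2.03, 6.00, 3.19, 4.52 and 2.67 CPM in aged 1 to 5. Only aged 2 reached the young range. The log2 fold change was −0.70 (SE 0.33; edgeR adjusted p = 0.617), the exact permutation p was 0.0476, and the value was −1.13 in young 1 to 3 against aged 5. On the TPM scale the group means had the opposite order, 1.34 in young and 1.45 in aged, with aged 3 at 3.62.

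Inhbb encodes the activin and inhibin beta B chain. It was at 2.13, 2.15, 1.64 and 1.90 CPM in young 1 to 4 and at 6.26, 6.80, 0.98, 2.18 and 5.05 CPM in aged 1 to 5. Aged 1, aged 2 and aged 5 were above every young library, aged 4 was just above them and aged 3 was below. The log2 fold change was 1.12 (SE 0.52; edgeR adjusted p = 0.594), 1.62 in the 6 libraries (edgeR adjusted p = 0.0694), −0.26 in the 3, and 1.35 in young 1 to 3 against aged 5. The adjusted p of Inhbb was 0.0694 to 1.00 over the tested alternatives. With the set term and without aged 3, its edgeR adjusted p was 0.0300.

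Tgfb3, the third TGF-beta isoform, was at 11.9, 12.7, 8.02 and 10.4 CPM in young 1 to 4 and at 14.9, 23.7, 16.7, 7.58 and 8.29 CPM in aged 1 to 5. Aged 1 to 3 lay above the young range and aged 4 below it, with a log2 fold change of 0.40 (SE 0.35; edgeR adjusted p = 0.951). Against young 1 to 3, aged 5 was at −0.39. Tgfb1 was at 179.8 to 205.9 CPM in young and 149.3 to 245.7 in aged (log2 fold change 0.02), with 0.25 in the 6 libraries and −0.42 in the 3. Inhba, the beta A chain of activin A, was at 27.4 to 38.8 CPM in young and 24.7 to 63.3 in aged (log2 fold change 0.28).

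Receptors leaned the other way from the BMP ligands, with 7 of 9 tested above 0 and a median of 0.22. The median was 0.27 with the set term, 0.36 in the 6 libraries, 0.02 in the 3 and 0.09 in young 1 to 3 against aged 5. Other scaling factors in edgeR gave 7 or 8 above 0, and limma-voom gave 6 (median 0.09).

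Bmpr1a, the type I BMP receptor ALK3, was at 17.2, 18.9, 16.4 and 18.7 CPM in young 1 to 4 and at 28.1, 29.3, 15.2, 39.2 and 28.0 CPM in aged 1 to 5. Aged 3 was the lowest of all 9 libraries, and the other 4 aged libraries were above every young one. Group means were 17.8 ± 1.17 CPM (SD, n = 4) and 28.0 ± 8.53 CPM (SD, n = 5), a log2 fold change of 0.65 (SE 0.25; edgeR adjusted p = 0.466) with an exact permutation p of 0.0476. The value was 0.71 in the 6 libraries (edgeR adjusted p = 0.0694), 0.54 in the 3 and 0.68 in young 1 to 3 against aged 5. Its adjusted p was 0.0694 to 0.902 over the tested alternatives. With the set term and without aged 3, its edgeR adjusted p was 0.0179. The Bmpr1a promoter window holds the GGCGCC match.

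Bmpr2, the main type II BMP receptor, was at 35.7, 32.0, 34.7 and 36.8 CPM in young 1 to 4 and at 44.5, 38.6, 41.1, 54.3 and 36.5 CPM in aged 1 to 5. Aged 5 alone lay inside the young range. This was a log2 fold change of 0.31 (SE 0.17; edgeR adjusted p = 0.712), with an exact permutation p of 0.0397, and 0.09 in young 1 to 3 against aged 5.

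Tgfbr1, the type I TGF-beta receptor ALK5, was at 59.2, 52.7, 59.3 and 37.2 CPM in young 1 to 4 and at 129, 82.0, 41.01, 40.8 and 67.3 CPM in aged 1 to 5. The lowest 3 libraries were young 4, aged 3 and aged 4, and within the other 6 every aged value was above every young one. With group alone, the log2 fold change was 0.47 (SE 0.35; edgeR adjusted p = 0.890), and it was 0.53 with the set term (edgeR adjusted p = 0.181) and 0.71 in the 6 libraries (edgeR adjusted p = 0.129), with an adjusted p of 0.129 to 1.00 over the tested alternatives. In young 1 to 3 against aged 5 it was 0.24.

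The same 3 libraries were below the other 6 in 5 of 9 tested receptors: Tgfbr1, the type II TGF-beta receptor Tgfbr2 (35.6 to 48.2 against 79.9 to 143 CPM), the coreceptor betaglycan Tgfbr3 (14.3 to 23.6 against 31.5 to 38.6), and the activin type II receptors Acvr2a (5.82 to 6.39 against 7.76 to 11.4) and Acvr2b (0 to 0.57 against 1.10 to 2.14). Over all members this held for 9 of 39 (23.1%), against 20.9% of all tested genes. Log2 fold changes with age were 0.22 for Tgfbr2, −0.19 for Tgfbr3, 0.13 for Acvr2a and 0.03 for Acvr2b. The type I receptors Acvrl1 (ALK1) and Acvr1 (ALK2) were at 0.29 and −0.03. Bmpr1b (ALK6), a further type I BMP receptor, was at 0.11, 0.23, 0.17 and 0.61 CPM in young 1 to 4 and at 0.22, 0.93, 2.02, 0.83 and 0.26 CPM in aged 1 to 5. Aged 2, aged 3 and aged 4 were above every young library, and aged 1 and aged 5 lay within the young range. DESeq2, which kept this gene, gave a log2 fold change of 1.65 (SE 0.79; adjusted p = 0.426), and the authors' deposited table gave 1.65 with an adjusted p of 0.435. Part of the Acvr2a reads may be shared with Orc4, which overlaps it on the opposite strand at 467 to 840 counts.

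**Figure D4:**
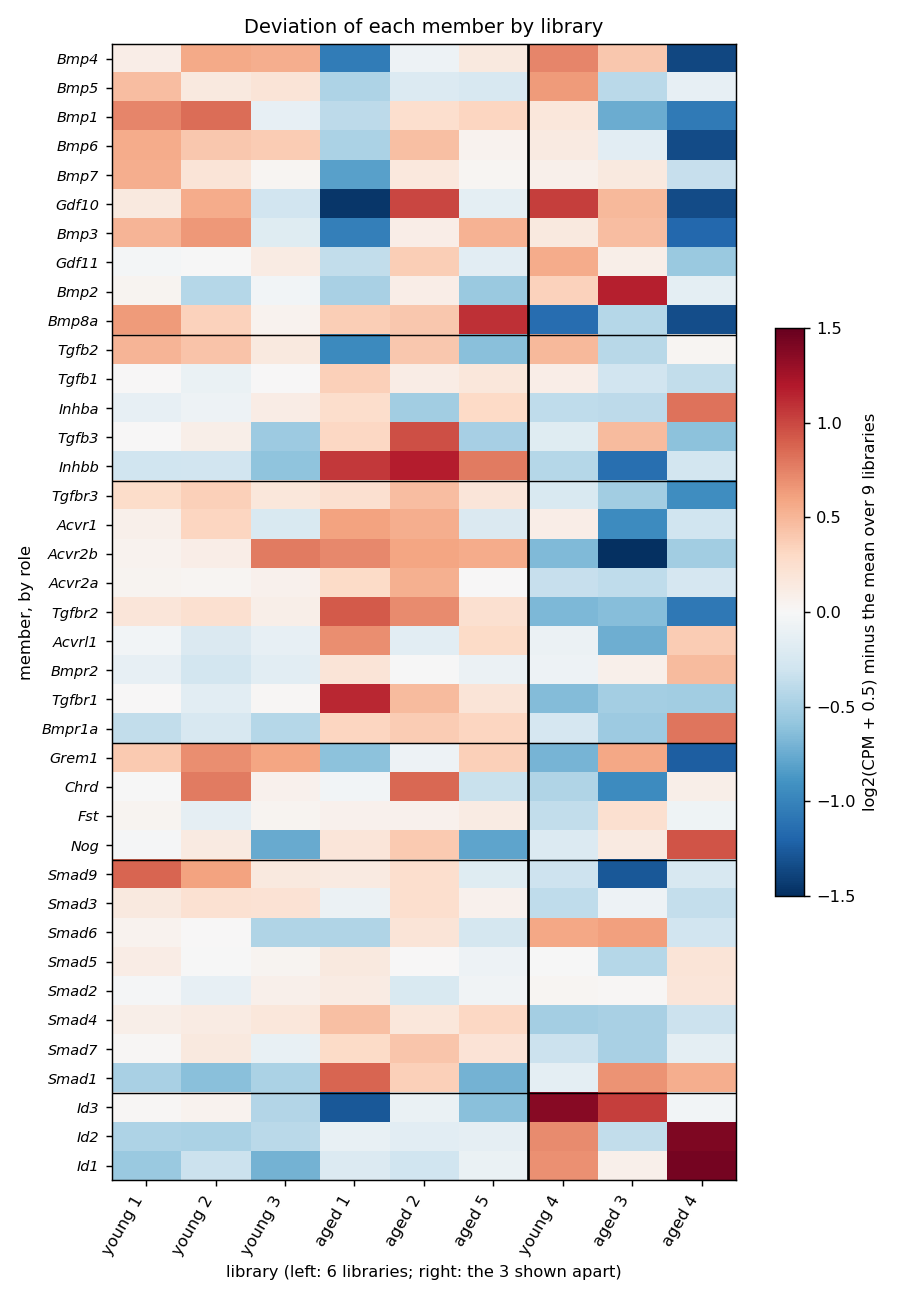
Each tested member's log2(CPM + 0.5) minus its mean over the 9 libraries, by role (rows, divided by lines) and library (columns, young 4, aged 3 and aged 4 right of the heavy line). Receptor rows are mostly blue in those 3 libraries, with 5 of 9 tested receptors wholly below the other 6 there. Over all roles this held for 9 of 39 members, against 20.9% of all tested genes. In 6 BMP ligand rows the lowest values are in aged 1 and aged 4.

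Antagonists bind ligands outside the cell. Of the 4, 2 were below 0, with a median of −0.02 (0.00064 with library totals as the only scaling). The median moved to 0.10 with the set term, 0.00 in the 6 libraries, 0.59 in the 3 (0 of 4 below 0) and −0.80 in young 1 to 3 against aged 5 (3 of 4 below 0). Grem1, gremlin, a BMP antagonist of marrow stromal and skeletal progenitor cells, was at 16.5, 20.6, 19.1 and 7.54 CPM in young 1 to 4 and at 8.02, 11.8, 19.0, 5.04 and 16.2 CPM in aged 1 to 5. The lowest 3 libraries were aged 4, young 4 and aged 1, and aged 3 and aged 5 were near the upper young values. The log2 fold change was −0.41 (SE 0.41; edgeR adjusted p = 0.982), 0.67 in the 3 libraries that stood apart and −0.21 in young 1 to 3 against aged 5.

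Follistatin (Fst), which sequesters activins, was at 5.48, 4.81, 5.46 and 4.01 CPM in young 1 to 4, and 5.56, 5.56, 6.37, 5.04 and 5.80 CPM in aged 1 to 5. All but aged 4 lay above every young library, at a log2 fold change of 0.20 (SE 0.22; edgeR adjusted p = 0.992), and 0.14 in young 1 to 3 against aged 5. Noggin (Nog), a BMP trap, was sparse, at 0.61, 0.73, 0.17 and 0.48 CPM in young 1 to 4 and 0.78, 0.98, 0.74, 1.66 and 0.15 CPM in aged 1 to 5, with 4 to 32 counts per library. Aged 5 was the lowest library and the other 4 aged libraries were the highest, a log2 fold change of 0.78 (SE 0.66; edgeR adjusted p = 0.947) with −1.70 in young 1 to 3 against aged 5. Chordin (Chrd), also a BMP trap, had 0 to 28 counts per library and a log2 fold change of −0.23, and it overlaps Thpo (5 to 21 counts) on the opposite strand.

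Among the SMADs, 4 of 8 were below 0 and the median was −0.01 (0.02 with library totals as the only scaling), and Smad1 had the largest positive value. The median was −0.02 in the 6 libraries, 0.05 in the 3 and −0.13 in young 1 to 3 against aged 5 (6 of 8 below 0). Smad1, a receptor SMAD of the BMP branch, was at 12.2, 11.0, 12.3 and 15.6 CPM in young 1 to 4 and at 32.2, 22.2, 27.9, 25.4 and 10.4 CPM in aged 1 to 5. Aged 1 to 4 were above every young library, and aged 5 was the lowest of all 9. The means were 12.8 ± 1.99 CPM (SD, n = 4) and 23.6 ± 8.26 CPM (SD, n = 5), a log2 fold change of 0.89 (SE 0.30; edgeR adjusted p = 0.399). The set term gave 0.84 (edgeR adjusted p = 0.136), and the adjusted p was 0.108 to 0.902 over the tested alternatives. With the set term and without aged 5, the edgeR adjusted p was 0.0199. In young 1 to 3 against aged 5, which share both the Y-linked transcripts and the low ribosomal share, the value was −0.19.

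Summed macrophage and monocyte markers, 11 of 11 detected with none at 0 throughout, were at 1397 to 1732 CPM in young and 1953 to 3340 in aged, aged 5 being the lowest aged library, and 9 of 11 were above 0 (median 0.89). Their part in the Smad1 and Tgfbr1 values was not tested. Smad5, the close relative of Smad1, was at 45.6 to 49.7 CPM in young and 34.0 to 52.4 in aged (log2 fold change −0.05).

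Smad9, the least abundant BMP SMAD, was at 1.71, 1.33, 0.84 and 0.48 CPM in young 1 to 4 and at 0.82, 0.93, 0, 0.52 and 0.56 CPM in aged 1 to 5. Only young 1 and young 2 were above all aged libraries, with 0 to 45 counts per library and a log2 fold change of −0.93 (SE 0.75; edgeR adjusted p = 0.925), and −1.19 in young 1 to 3 against aged 5. Smad4, the common partner, was at 33.7, 34.7, 35.7 and 22.1 CPM in young 1 to 4 and at 43.6, 35.8, 22.4, 25.2 and 39.5 CPM in aged 1 to 5. The 3 low values were the libraries that stood apart, and the other 3 aged libraries were above every young one, at a log2 fold change of 0.08 (SE 0.25; edgeR adjusted p = 1.00), and 0.19 in young 1 to 3 against aged 5.

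Neither inhibitory SMAD was called. Smad7, an inhibitor of type I receptors that TGF-beta is known to induce, was at 8.02, 8.88, 7.35 and 6.25 CPM in young 1 to 4 and at 9.79, 10.8, 5.52, 7.11 and 9.23 CPM in aged 1 to 5. Again young 4, aged 3 and aged 4 were the lowest 3 libraries, and the log2 fold change was 0.16 (SE 0.25; edgeR adjusted p = 1.00), and 0.19 in young 1 to 3 against aged 5. Smad6, which inhibits BMP signalling, was at 1.89 to 4.41 CPM in young and 1.90 to 4.54 in aged (log2 fold change −0.09). The TGF-beta and activin SMADs Smad2 and Smad3 were at 0.03 and −0.10.

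The 3 Id genes, read here as the transcriptional targets, had their highest CPM in young 4 or aged 4. In young 1 to 3 against aged 5, Id1, Id2 and Id3 were at 0.43, 0.31 and −0.54. Id1 was at 13.0, 15.4, 11.6 and 31.3 CPM in young 1 to 4 and at 16.7, 15.6, 20.3, 53.2 and 18.0 CPM in aged 1 to 5. In CPM, aged 4, young 4 and aged 3 were the highest 3, and all aged libraries were above young 1 to 3. On the TPM scale aged 4 was still highest (54.9), but aged 3 was lowest (17.0). Young 4, at 22.1 TPM, lay within young 1 to 3 (19.2 to 24.8). The log2 fold change was 0.48 (SE 0.44; edgeR adjusted p = 0.965), and −0.01 without aged 4.

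Id2 was at 43.3, 42.7, 45.0 and 97.8 CPM in young 1 to 4 and at 55.3, 53.2, 46.2, 158.8 and 54.2 CPM in aged 1 to 5. In CPM, young 4 and aged 4 stood far above the rest, and within the other 6 libraries every aged value was above every young one. In those 6 the log2 fold change was 0.32 (edgeR adjusted p = 0.0736). The adjusted p was 0.0736 to 1.00 over the tested alternatives. With the set term and without aged 3, the edgeR adjusted p was 0.0275. On the TPM scale young 4, at 47.1, was below young 1 to 3 (48.4 to 54.2), while aged 4 was still highest (112). Over all 9 libraries the log2 fold change was 0.36 (SE 0.43; edgeR adjusted p = 1.00), and −0.13 without aged 4. Id3 was at 24.4, 25.1, 17.7 and 63.2 CPM in young 1 to 4 and at 9.75, 22.6, 50.0, 23.4 and 15.4 CPM in aged 1 to 5. Young 4 and aged 3 were highest and aged 1 and aged 5 lowest, with a log2 fold change of −0.43 (SE 0.50; edgeR adjusted p = 1.00) and 0.11 without young 4. On the TPM scale Id3 was highest in young 1 (33.3), with young 4 at 30.9 and aged 3 at 28.3.

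Neutrophil markers, 10 of 10 detected with none at 0 throughout, summed to 74726 CPM in aged 4 and 53312.5 in young 4. These were the libraries with the highest Id2 CPM, and the other 7 had sums of 17453 to 32725. Megakaryocyte and platelet markers were 9 of 9 detected with none at 0 throughout. They summed to 1795 to 2379 CPM in the 3 libraries that stood apart and 710 to 1574 in the other 6, the same split as Id1. The neutrophil sum had this split too, with aged 3 at 32725 CPM and the other 6 at 17453 to 32648. In CPM, all 3 libraries were above the other 6 in 20% of all tested genes, and among the 39 tested members only in Id1 (2.56%). The Id1 split was absent on the TPM scale, where aged 3 was the lowest library. The part of either marker list in the Id values was not tested.

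**Figure D5:**
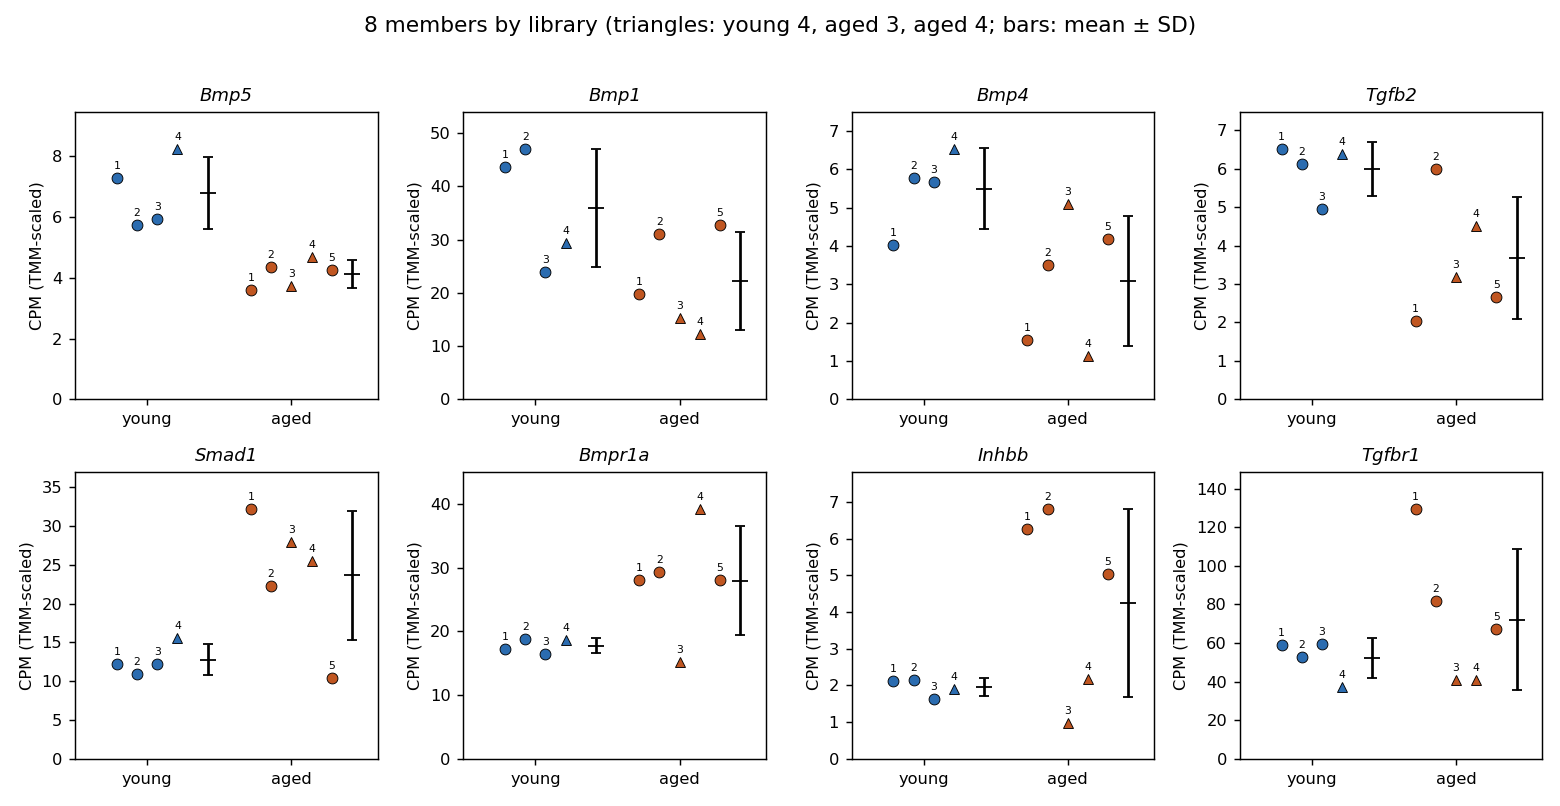
CPM of 8 members in each library, numbered by replicate, with triangles for young 4, aged 3 and aged 4 and black bars for the group mean ± SD (n = 4 young, n = 5 aged). Bmp5 is the one panel whose groups do not overlap in CPM, although they do on the TPM scale. Aged 5 (10.4 CPM) sits with the young libraries for Smad1, and aged 3 (15.2 CPM) for Bmpr1a.

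A wider list of 71 other genes of the pathway (ligands, coreceptors, antagonists, latency proteins, SMAD regulators and targets) had 53 tested members, 0 of them called with group alone. At an unadjusted p under 0.05 there were 4 higher and 2 lower, where 4.15% and 4.64% of all genes were. With the set term 8 were higher and 4 lower at that level (8.59% and 10.2% of all genes), and 1 was called, where 1.92% of all genes were. The median log2 fold change of the 53 was −0.04.

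The called gene was Skil, which encodes the SMAD corepressor SnoN. It was at 33.6, 28.9, 34.2 and 26.9 CPM in young 1 to 4 and at 62.3, 64.0, 53.1, 46.0 and 43.2 CPM in aged 1 to 5. In CPM, every aged library was above every young one, as in 1.67% of all tested genes, with aged 5 the lowest of the aged. On the TPM scale the groups overlapped, with aged 3 and aged 4 at 4.79 and 5.24 and young 1 to 3 at 5.56 to 7.13. Its log2 fold change was 0.80 (SE 0.18; edgeR adjusted p = 0.266) with group alone and 0.83 with the set term (edgeR adjusted p = 0.0405), and DESeq2 also called it (adjusted p = 0.0228). Leaving out 1 library at a time with the set term kept the call without aged 3 (edgeR adjusted p = 0.0179) and without aged 5 (0.0135) and ended it without any of the other 7 (0.0568 to 0.176). It stood at 0.82 in the 6 libraries, 0.88 in the 3 and 0.42 in young 1 to 3 against aged 5. Ski, its relative, was at 0.24 with group alone and 0.34 with the set term (edgeR adjusted p = 0.158), with 0.08 in young 1 to 3 against aged 5.

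Of the other genes with an unadjusted p under 0.05, none was called with all 9 libraries. Without aged 3 the fit with the set term called Gdf15, Nrros, Itgav and Tgfbi besides Skil, and 9.91% of all genes. Without aged 5 it called Gdf3 besides Skil, and 4.36% of all genes. Itgav had an unadjusted p of 0.0695 with all 9 libraries (edgeR, set term). Tgfbi, a matrix protein named for its induction by TGF-beta, was at 159, 153, 169 and 203 CPM in young 1 to 4 and at 348, 268, 173, 443 and 348 CPM in aged 1 to 5. Aged 3 alone lay inside the young range, and the log2 fold change was 0.89 (SE 0.27; edgeR adjusted p = 0.342), with 1.12 in young 1 to 3 against aged 5.

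Sost, which encodes the osteocyte protein sclerostin, had a log2 fold change of −1.08 (37.5 to 56.9 CPM in young, 6.87 to 44.0 in aged; edgeR adjusted p = 0.489). Bmper, a secreted BMP modulator of vessels, was at −1.29 (0.88 to 2.43 CPM in young, 0.48 to 0.98 in aged; edgeR adjusted p = 0.368). Gdf3, a ligand of the family, was at 1.54 (3.36 to 8.49 CPM in young, 3.62 to 20.9 in aged; edgeR adjusted p = 0.385) and at 0.03 in young 1 to 3 against aged 5. The stress-induced ligand Gdf15 was at −0.98 and −1.0 with the set term (edgeR adjusted p = 0.0544), its highest library being young 4 at 18.3 CPM against 2.72 to 5.97 in the other 8. Id4, a further Id gene, was at −0.81. In young 1 to 3 against aged 5, Sost, Bmper, Gdf15 and Id4 were at −1.40, −1.20, −0.67 and −0.35.

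The type I receptor Acvr1b was at 0.45 (edgeR adjusted p = 0.670), and at 0.33 in young 1 to 3 against aged 5. Of the 11 genes that hold or release latent TGF-beta, 6 were below 0 and the median was −0.01. The 3 of them with an unadjusted p under 0.05 under the set term were all above 0. Ltbp2, a latent TGF-beta binding protein of the matrix, was at 32.9, 35.9, 23.3 and 10.3 CPM in young 1 to 4 and at 103, 96.7, 30.6, 7.89 and 27.1 CPM in aged 1 to 5. Only aged 1 and aged 2 were above the young range and aged 4 was below it, at a log2 fold change of 1.05 (edgeR adjusted p = 0.822; exact permutation p = 0.532) and −0.18 in young 1 to 3 against aged 5. The latency partner Nrros was at 0.36 (edgeR adjusted p = 0.782), with 0.39 in young 1 to 3 against aged 5. The integrin chain Itgb8 was at 1.29 (0.13 to 0.68 CPM in young, 0.48 to 1.47 in aged; edgeR adjusted p = 0.632), with 0.52 in young 1 to 3 against aged 5.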

How the data were processed

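Bulk RNA sequencing of 4 young and 5 aged mice was taken from 1 deposited table. Bowtie 0.12.2 and the build mm8 are named, per the submitters' processing notes, with no role; the quantifier, annotation and strand setting are not given in the sources used here. Of the gene IDs, 52073 of 56980 were in GENCODE M21. The authors deposited estimated counts per gene, which were rounded to whole numbers for testing and not scaled beforehand. TPM values, scaled for gene length and library total, were made by the authors, per the file headers. The authors' deposited table also holds log2 fold changes and p-values of a DESeq2 comparison with settings not given.

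Counts were tested with edgeR 4.0.16 (R 4.3.3; quasi-likelihood F test): TMM factors, filterByExpr (minimum count 10, total 15), group as the only term, two-sided, with Benjamini-Hochberg adjustment over 16576 genes and a threshold of 0.05. A second fit added a term for young 4, aged 3 and aged 4, and another fit its interaction with age. Alternatives were DESeq2 1.42.0, limma-voom (limma 3.58.1), other scalings and filters, subsets of libraries, a replicate block and each library left out. CPM use TMM factors, and SE is the log2 fold change divided by the root of F. Exact permutation used the difference in mean log2 CPM (prior count 2). In GENCODE M21, 13 of 41 members overlap exons of another gene, 11 of them on the opposite strand. Estimated counts were not whole in some library for 10 members. Only the fit with group alone was run on simulated counts with known changes, to check its median log2 fold changes.

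The members and the lists were chosen with earlier results of these data known. Values in every library are given for the 3 tested members of each role with the smallest p, the 2 with the smallest p under the set term, and any with groups that do not overlap or past the threshold. From the pathway list, those with an unadjusted p under 0.05 in either fit are named, at most 4 per sublist. Some genes named by this rule are not reported here. The labels call the mice biological replicates and give no litter or extraction batch. Figures used Python 3.11.15, pandas 2.3.3 and matplotlib 3.10.9.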

Additional observations from a re-analysis of the deposited data

Results flagged for a closer look

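In 78 groups of libraries (39 tested members, young or aged), 8 had a highest or lowest library separated from the nearest other by an unusually large share of the group's range (past Dixon's 95% critical value). Chance flags about 1 in 20 groups, and the share of flags over all tested genes was not computed.

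Of the 5 values in young libraries, all were in young 4. Acvr2a, an activin type II receptor, was at 5.98 CPM there against 7.92 to 8.10 in young 1 to 3. Smad3 was at 25.7 against 37.2 to 39.4, and Smad4 at 22.1 against 33.7 to 35.7. Id2 was at 97.8 CPM against 42.7 to 45.0, and Id3 at 63.2 against 17.7 to 25.1. On the TPM scale Id2 in young 4 was at 47.1, below young 1 to 3 (48.4 to 54.2). Id3 in young 4 was at 30.9 TPM, within young 1 to 3 (23.7 to 33.3).

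Of the 3 values in aged libraries, 2 were in aged 4, where Id1 was at 53.2 CPM against 15.6 to 20.3 and Id2 at 158.8 against 46.2 to 55.3 in the other aged libraries. Bmp2 was at 9.62 CPM in aged 3 against 2.56 to 4.31 in the other aged libraries. All 8 values were in libraries of the set with the higher ribosomal protein share. That set was wholly above the other 6 libraries in 20% of all tested genes and wholly below in 20.9%. Whether members were flagged more often than other genes was not tested.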

How the results depend on the processing

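Genes called between aged and young numbered 0 with group alone and also with limma-voom, the other scalings and the other filters. They numbered 319 with the library set term, 2 in the 6 libraries alone, 311 with DESeq2 and 0 to 6 when 1 library was left out (6 without aged 5). Members called were 0 under every one of these, and 0 to 4 when 1 library was left out with the set term kept, which was tried after the data were seen (4 without aged 3, 1 without aged 5).

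Of 397 alternative values for the 19 members given by library, 11 changed sign, in 9 members; the cause was not tested. In tested fits 6 did, in Smad4, Id1, Id2 and Id3, whose log2 fold changes ranged from −0.058 to 0.19, −0.011 to 0.89, −0.13 to 0.75 and −0.87 to 0.11 when 1 library was left out. In subsets with 1 young or 1 aged library, which have no test, 5 did: Inhbb (−0.26) and Grem1 (0.67) in the 3 libraries that stood apart, and Tgfb3 (−0.39), Nog (−1.70) and Smad1 (−0.19) in young 1 to 3 against aged 5.

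With the replicate number as a block (replicates 1 to 4), 13 genes and 0 members were called, and Smad4 reversed to −0.0070 (edgeR adjusted p = 0.993). Deviations of same-numbered libraries from their group means correlated at 0.456, 0.554, −0.387 and 0.739. The difference between the library sets was left in these deviations, with young 4 and aged 4 both in the set that stood apart. The correlations therefore cannot show whether the numbers pair the samples. The biological coefficient of variation of the fit with group alone was 0.464.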
